A study of Mus musculus with 8 samples.

Results

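The 80 genes for proteins of the cytosolic ribosome were followed through macrophage differentiation with and without Thoc5, a subunit of the THO complex, which couples transcription to the export of mRNA. Members were chosen by name alone: every gene whose deposited symbol is Rpl or Rps with a number (and an optional a, x or l at the end), together with Rpsa, Rplp0, Rplp1 and Rplp2. They had 168 probes, of which 165 passed the filter on dim probes, and each gene was represented by its brightest probe. Of the 80 genes, 79 were tested among 18047 genes in all. Rpl10l, a paralog of Rpl10 known from the mouse testis, was not well above background and was not tested.

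Cytoplasmic RNA came from mouse bone marrow derived macrophages, labelled as such by the study, on 8 dual-colour arrays in 4 groups of 2. The groups were ERT2 Cre Thoc5 (flox/flox) cells with tamoxifen, ERT2 Cre Thoc5 (flox/flox) cells without tamoxifen, ERT2 Cre control cells with tamoxifen and ERT2 Cre control cells without tamoxifen, called flox and control cells below. All 4 groups carried the tamoxifen-activated ERT2 Cre on the background C57BL/6 x B6:129 Ola, and all were under CSF-1, the growth factor for macrophages, at day 3. Each array compared a day 3 sample with the day 0 sample of its own genotype and experiment, and that day 0 sample served the array with tamoxifen and the one without. Each group had 1 array from each of 2 biological experiments. The second experiment used the opposite dyes, so experiment, dye direction and slide are the same split and cannot be told apart. The mice's age and the number of animals per sample are not given in the sources used here, and p-values measure the spread between these arrays.

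Values are log2 ratios of day 3 over day 0 unless a sentence says otherwise, and ± gives the standard error of the limma fit on 2 arrays per group. A gene counts as called where its p, adjusted by Benjamini-Hochberg over all genes tested, was under 0.05. Thoc5 itself fell by 2.27 ± 0.10 with tamoxifen in flox cells (limma adjusted p = 0.000737), with -2.30 in experiment 1 and -2.25 in experiment 2, against 0.16 ± 0.10 in control cells. At day 3, 16 of 16 neutrophil and granulocyte precursor markers were called lower in flox cells without tamoxifen and 15 of 16 in each other group, with list medians between -3.59 and -3.21 on the 8 arrays. Of 15 measured macrophage markers, 11 were called higher and 4 lower in flox cells with tamoxifen, 7 and 3 in untreated flox cells, 8 and 1 in tamoxifen-treated control cells, and 9 and 2 in untreated control cells. Adgre1, which encodes F4/80, rose in all 4 groups, by 0.62, 0.79, 0.71 and 0.51 in that order. All 14 cell division genes were called lower at day 3 in both control groups, against 13 in flox cells with tamoxifen and 12 in flox cells without. The part of these changes in cell makeup in the ratios of the ribosomal protein genes was not tested, and in such bulk RNA fewer cells of a type and less RNA per cell cannot be told apart.

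The cytosolic ribosome has a small subunit, built with the Rps proteins, which reads the mRNA, and a large subunit, built with the Rpl proteins, which joins the amino acids. The acidic stalk proteins Rplp0, Rplp1 and Rplp2 recruit and activate translation factors on the large subunit. Messenger RNAs of nearly all these proteins begin with a tract of pyrimidines (the TOP motif), through which their translation responds together to growth signals such as mTOR, and they are made in step with ribosomal RNA in growing cells. A few genes have a paralog that a cell type can use in place of the usual gene, such as Rpl3l in mouse heart and skeletal muscle and Rpl39l in the mouse testis.

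Starts of these genes were read from the promoter table of RefSeq (GRCm38.p6), which matched 59 of the 79 genes tested. The windows below cover 10 bases before and 20 bases after the first annotated start of genes whose ratios are described later, with the longest run of C and T in capitals, wherever in the window it lies. The first 5 genes were among those higher at day 3, the next 4 among those lower in at least 1 group, and the last 2 are the Rpl39 pair on which the tamoxifen result turns.
Rps7 (chr12:28635934-28635963, minus strand): cggTTTCCacccacctacttccgctgtccc
Rps18 (chr17:33955646-33955675, minus strand): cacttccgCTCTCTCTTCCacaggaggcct
Rpl28 (chr7:4792955-4792984, plus strand): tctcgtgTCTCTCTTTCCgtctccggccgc
Rpl19 (chr11:98026700-98026729, plus strand): aaacgCCCTCactgcgcatgtgcgccgcgg
Rps15 (chr10:80292421-80292450, plus strand): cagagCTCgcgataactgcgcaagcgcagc
Rpsa (chr9:120127756-120127785, plus strand): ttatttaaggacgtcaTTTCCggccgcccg
Rplp2 (chr7:141447641-141447670, plus strand): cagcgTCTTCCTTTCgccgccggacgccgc
Rpl12 (chr2:32961702-32961731, plus strand): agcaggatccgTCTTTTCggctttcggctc
Rps12 (chr10:23787190-23787219, minus strand): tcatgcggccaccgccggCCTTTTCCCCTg
Rpl39l (chr16:10170218-10170247, plus strand): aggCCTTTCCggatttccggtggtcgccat
Rpl39 (chrX:37085203-37085232, minus strand): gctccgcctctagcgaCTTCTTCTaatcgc
The longest run in such a window had a median of 6 bases over the 59 genes, against 4 over all 27025 promoters, and reached 6 bases in 55.9% of them, against 28.6%. Among the windows shown, both long runs (11 bases in Rps18, Rpl28 and Rps12) and short ones (3 in Rps15, 5 in Rps7, Rpl19 and Rpsa) occurred, on either side of the day 3 result. The motif CCGGAAG, the core bound by the ETS factor GABPA, stood on either strand within 250 bases before and 50 after the start in 25 of 59 genes (42.4%), against 9.12% of all promoters. AAGATGGC, a form of the YY1 site, stood on either strand in 4 (6.78%), against 2.88%. TATAAA stood on the transcribed strand in the 50 bases before the start of 0 of 59, against 2.88%. These are matches of letters and say nothing of binding.

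The probes that carry the pair Rpl39 and Rpl39l differ from each other. Neither probe was compared with the transcript of the other gene, so whether it also detects that transcript was not tested. Each is 60 bases long, the longest run they share in either orientation is 7 bases, and the first 30 bases of each are as follows, in the direction of the deposited sequence.
Rpl39l (mm9, chr16:10174657-10174716, plus strand): ctgtgctttagtgagttcattcagcagttc
Rpl39 (mm9, chrX:34622696-34623990, minus strand, across a splice junction): aacaaaatcaggtacaactctaagagaaga

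Where tamoxifen lowered Thoc5, few ribosomal protein genes showed a detectable change in cytoplasmic mRNA. In flox cells 1 of 79 genes was called higher with tamoxifen than without and 0 lower, against 9.03% of all genes tested called in either direction, 4.85% higher and 4.17% lower. At an unadjusted p under 0.05, 3 of 79 passed, against 24.9% of all genes. The median change over the 79 genes was 0.00, with quartiles at -0.06 and 0.05, against a median of -0.01 and quartiles at -0.17 and 0.17 over all genes. With median centring in place of loess, the members' median was -0.11, against 0.01 over all genes. The 95% interval of the change lay within 0.5 on the log2 scale for 71 of 79 genes and within 1 for all 79.

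**Figure D1:**
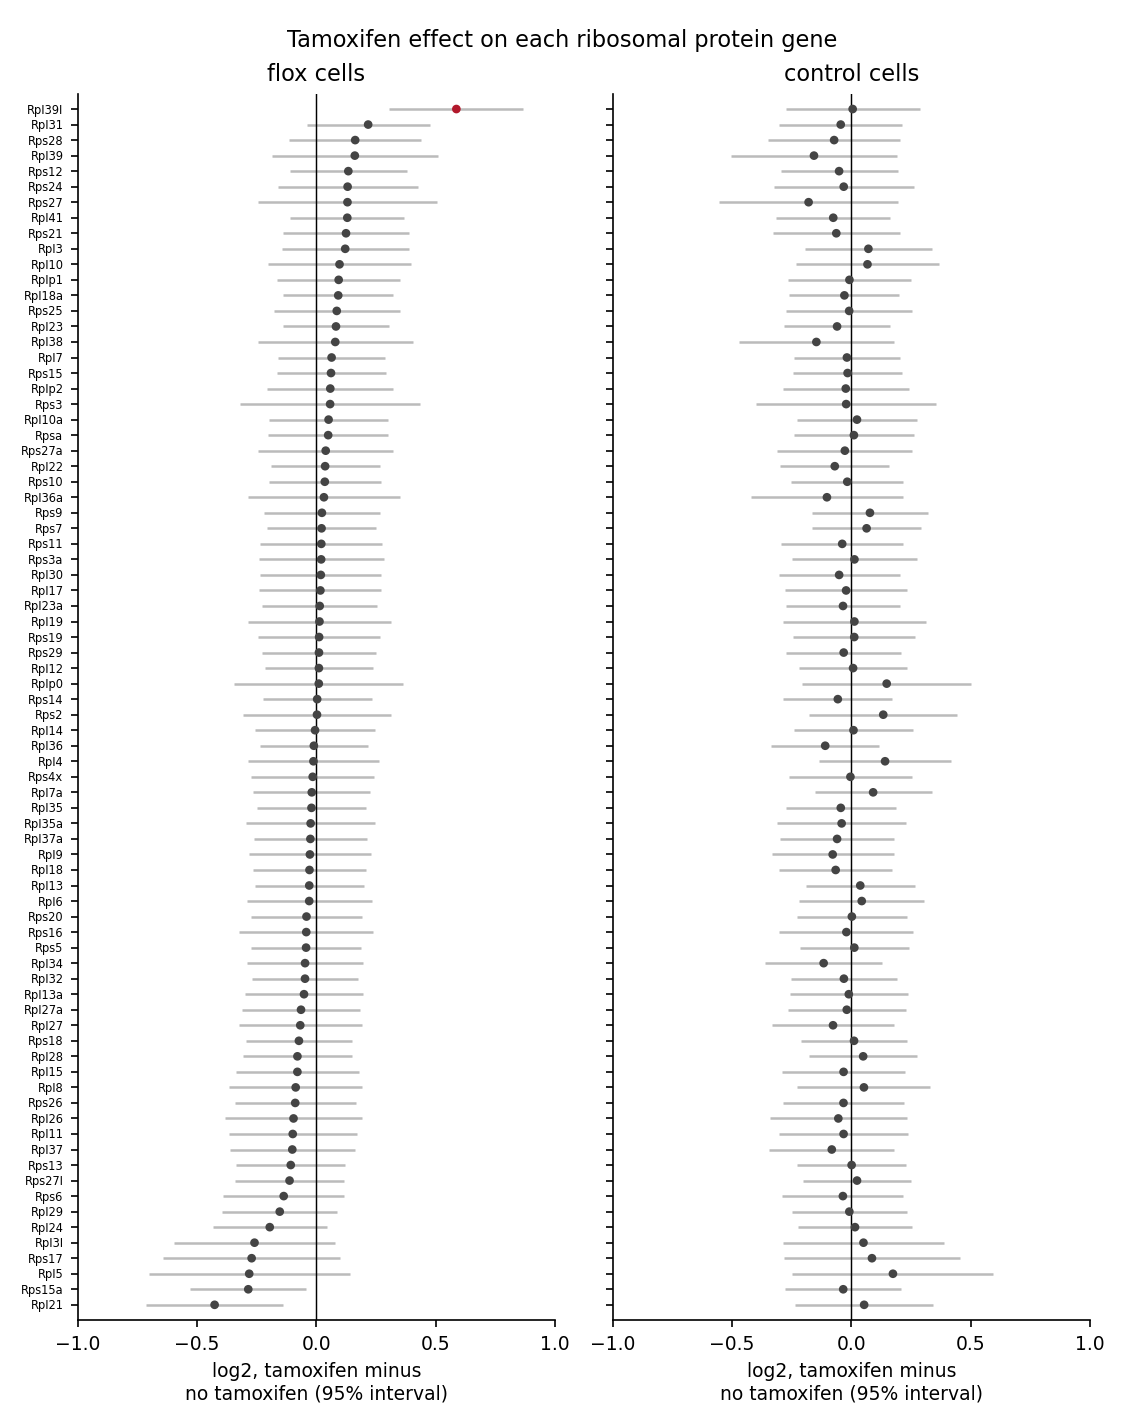
Tamoxifen effect (tamoxifen minus no tamoxifen, in log2 units) on each of 78 ribosomal protein genes in flox cells (left) and control cells (right), with 95% intervals of the limma fit on 2 arrays per group; the gene in red, Rpl39l, was called at an adjusted p under 0.05. All other genes lie between -0.43 and 0.22 in flox cells, and all 78 between -0.18 and 0.17 in control cells.

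The gene called was Rpl39l. Its log2 ratios were 0.03 and 0.04 on the arrays of flox cells with tamoxifen, against -0.43 and -0.68 in untreated flox cells. They were -0.64 and -0.73 in control cells given tamoxifen, against -0.73 and -0.64 in untreated control cells. Day 3 and day 0 levels were thus nearly equal in flox cells with tamoxifen, while the day 3 level was lower in every other array, with no overlap. The tamoxifen effect was 0.59 ± 0.12 in flox cells (limma adjusted p = 0.0321), with 0.46 in experiment 1 and 0.72 in experiment 2, against 0.01 ± 0.12 in control cells (adjusted p = 1.00). The difference of these effects was 0.58 ± 0.16 and did not pass (adjusted p = 0.167). Flox cells with tamoxifen stood 0.72 ± 0.12 above control cells with tamoxifen (limma adjusted p = 0.0177). The call rested on 2 arrays a group, and it was lost without either array of flox cells with tamoxifen, flox cells without tamoxifen or control cells with tamoxifen (adjusted p between 0.0768 and 0.196), with the change between 0.46 and 0.72. It was also lost without a term for the experiment (adjusted p = 0.0700) and with median centring (adjusted p = 0.0916). The genotype difference with tamoxifen was lost without either array of the groups it compares (adjusted p between 0.0899 and 0.150), and with median centring (adjusted p = 0.105). Its usual partner Rpl39 had ratios of 0.12 and 0.03 in flox cells with tamoxifen, against -0.00 and -0.17 in untreated flox cells, and 0.19 and -0.22 in control cells given tamoxifen, against 0.43 and -0.15 in untreated ones. The tamoxifen effect on Rpl39 in flox cells was 0.16 ± 0.14 (adjusted p = 0.567).

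**Figure D2:**
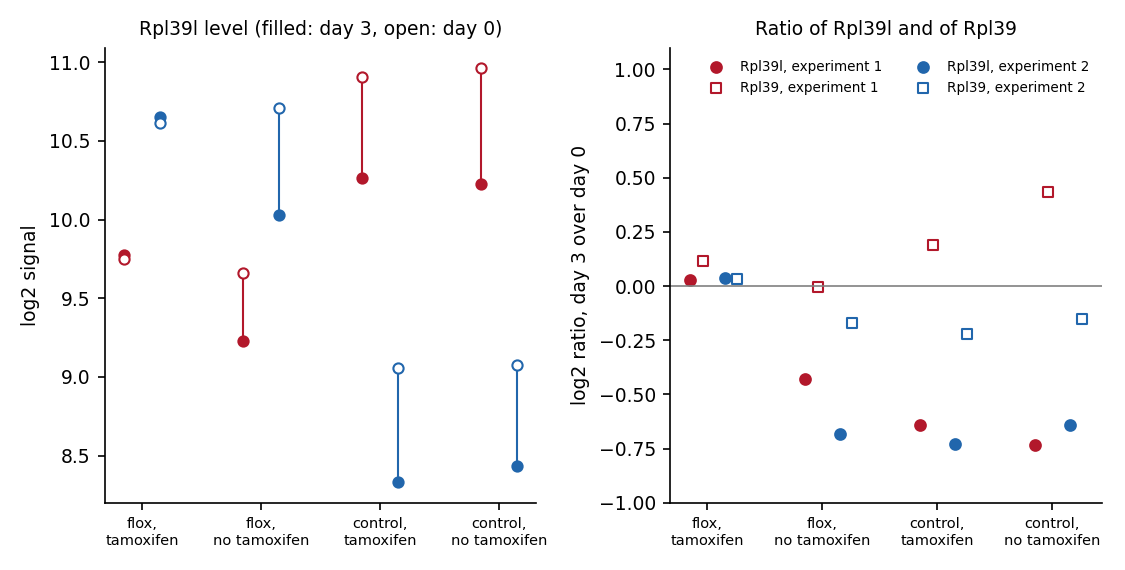
Left, log2 signal of the Rpl39l probe in the day 3 (filled) and day 0 (open) channel of each array, by group and experiment (red, experiment 1; blue, experiment 2). Right, log2 ratio of day 3 over day 0 for Rpl39l (filled circles) and Rpl39 (open squares); Rpl39l lies at 0.03 and 0.04 in flox cells with tamoxifen and between -0.73 and -0.43 in the other groups.

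The level of Rpl39l differed between genotypes in opposite ways in the experiments. After loess and Aquantile, its day 0 log2 signal was 9.75 and 9.66 on the flox arrays of experiment 1, against 10.91 and 10.96 on the control arrays. In experiment 2 it was 10.62 and 10.71 on the flox arrays, against 9.06 and 9.08 on the control arrays. Flox minus control at day 0 was thus -1.23 in experiment 1 and 1.59 in experiment 2. Of 17962 genes with a value on all arrays, Rpl39l was the only 1 below -1 in experiment 1 and above 1 in experiment 2, and 0 genes had the reverse. The day 3 channel followed its day 0 partner, with 9.78 and 10.65 in flox cells with tamoxifen, 9.23 and 10.03 in flox cells without, 10.27 and 8.33 in control cells with tamoxifen and 10.23 and 8.44 in control cells without (experiment 1, then 2). Within each experiment the day 0 samples of both genotypes carried the same dye, and the dyes of both genotypes were swapped between the experiments. The part of the dye in this difference was not tested. The origin of the day 0 samples, which come from a mixed strain background, was not checked here. With the day 3 channel alone, flox minus control with tamoxifen was 0.92 ± 0.75 (adjusted p = 0.445) and did not pass. The genotype difference with tamoxifen was therefore called in the ratio to day 0, not in the day 3 signal by itself. The tamoxifen effect in flox cells was not tested in the day 3 channel alone. There the signal was 9.78 with tamoxifen against 9.23 without in experiment 1, and 10.65 against 10.03 in experiment 2.

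Below Rpl39l in order of p, the largest changes in flox cells did not pass. Rpl21, of the large subunit, had -0.07 and -0.03 in flox cells with tamoxifen, against 0.50 and 0.25 in untreated flox cells. It had 0.50 and 0.25 in control cells given tamoxifen, against 0.32 and 0.32 in untreated ones. It was lower in flox cells with tamoxifen than in each other array, by 0.43 ± 0.12 against flox cells without (adjusted p = 0.0805) and by 0.42 ± 0.12 against control cells with tamoxifen (adjusted p = 0.0718). It passed against flox cells without tamoxifen when a random block stood for the day 0 RNA that arrays share (adjusted p = 0.0443) or when the 4 flox arrays were fitted alone (adjusted p = 0.0317). The Rpl21 probe was dimmer than most member probes. Its mean log2 signal was 9.72, against a median of 17.42 over the members and 10.82 over all genes tested. Rps15a, of the small subunit, had -0.23 and -0.25 in flox cells with tamoxifen, against 0.15 and -0.05 without.

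For tamoxifen in control cells, limma called 0 of 79 members, against 0% of all genes, and 0 of 79 had an unadjusted p under 0.05 in limma, against 5.53% of all genes. The median was -0.02, and the genes with the smallest p were Rpl4 at 0.14 ± 0.11, Rps2 at 0.13 ± 0.13 and Rplp0 at 0.15 ± 0.15 on the higher side, and Rpl36 at -0.11 ± 0.09, Rps27 at -0.18 ± 0.16 and Rpl34 at -0.12 ± 0.10 on the lower. For the difference of the tamoxifen effects between genotypes, limma called 0 of 79, against 1.11% of all genes, and 2 of 79 had an unadjusted p under 0.05, against 15.4% of all genes. These 2 were Rpl39l, and Rpl21 at -0.48 ± 0.17 (adjusted p = 0.246). The 95% interval of the difference lay within 0.5 for 57 of 79 genes and within 1 for 78.

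Between the genotypes with tamoxifen, 1 of 79 was called higher in flox cells and 0 lower, against 11.2% of all genes in either direction, 5.4% higher and 5.81% lower, and the member was Rpl39l. The median was -0.05, against -0.01 over all genes. It depended on the normalization, and with median centring it was -0.33, against -0.06 over all genes. Without tamoxifen limma called 0 of 79, against 2.84% of all genes, 1.44% higher and 1.4% lower, and 0 of 79 had an unadjusted p under 0.05, against 23.1% of all genes. The median was -0.07, and Rpl5 at 0.36 ± 0.18, Rplp0 at 0.26 ± 0.15 and Rpl39l at 0.13 ± 0.12 were the genes with the smallest p on the higher side, against Rps27 at -0.36 ± 0.16, Rpl34 at -0.23 ± 0.10 and Rpl38 at -0.27 ± 0.13 on the lower. Rpl5, which binds the 5S ribosomal RNA, had day 3 ratios of 0.95 and 0.14 in flox cells without tamoxifen, against 0.20 and 0.15 in control cells without, with the flox array of experiment 1 above all others and that of experiment 2 just below the control arrays.

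Other genes of ribosome production and translation are given for the tamoxifen effect in flox cells, in which 4.85% of all genes were called higher and 4.17% lower. Of 48 ribosome assembly and nucleolar factors, 0 were called higher and 9 lower, with a median of -0.41. Among the 9, Heatr1, which takes part in ribosomal RNA transcription and processing, fell by 0.72 ± 0.10 (limma adjusted p = 0.0116), and Polr1a, the largest subunit of RNA polymerase I, fell by 0.78 ± 0.13 (adjusted p = 0.0183). Of 75 mitochondrial ribosomal protein genes, 0 were called higher and 2 lower, with a median of -0.12. Of 34 initiation and elongation factors outside the TOP class, 0 were called higher and 1 lower with a median of -0.14, and the gene was Eif3j at -0.65 ± 0.09 (adjusted p = 0.0126). Of 23 translation factors and other TOP mRNAs, 1 was called higher and 0 lower with a median of -0.04, and the gene was Vim, for the intermediate filament vimentin, at 0.94 ± 0.18 (adjusted p = 0.0288). The difference between these lists and the ribosomal protein genes was not tested.

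Between day 0 and day 3 some ribosomal protein genes were higher and others lower, with fitted changes between -0.69 and 0.65. In flox cells with tamoxifen 12 of 79 were called higher and 13 lower, against 25.5% and 33.4% of all genes. In flox cells without tamoxifen 14 were called higher and 16 lower, against 23.8% and 33.3%. In control cells with tamoxifen 21 were called higher and 13 lower, against 23.8% and 33.7%, and in control cells without tamoxifen 22 and 9, against 23.2% and 34%. With loess, called members were a smaller share than called genes in each group, in which 58.8%, 57.1%, 57.6% and 57.2% of all genes were called in either direction. The arrays with and without tamoxifen of a genotype share their day 0 RNA and are not independent. Between the untreated groups, which share no RNA, 12 genes were called higher in both (85.7% of 14 in flox cells and 54.5% of 22 in control cells) and 9 lower in both (56.2% of 16 and 100% of 9). Over all genes, 72.9% of those called higher in flox cells and 74.6% of those in control cells were called higher in both, and 78.3% and 76.7% of those lower.

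**Figure D3:**
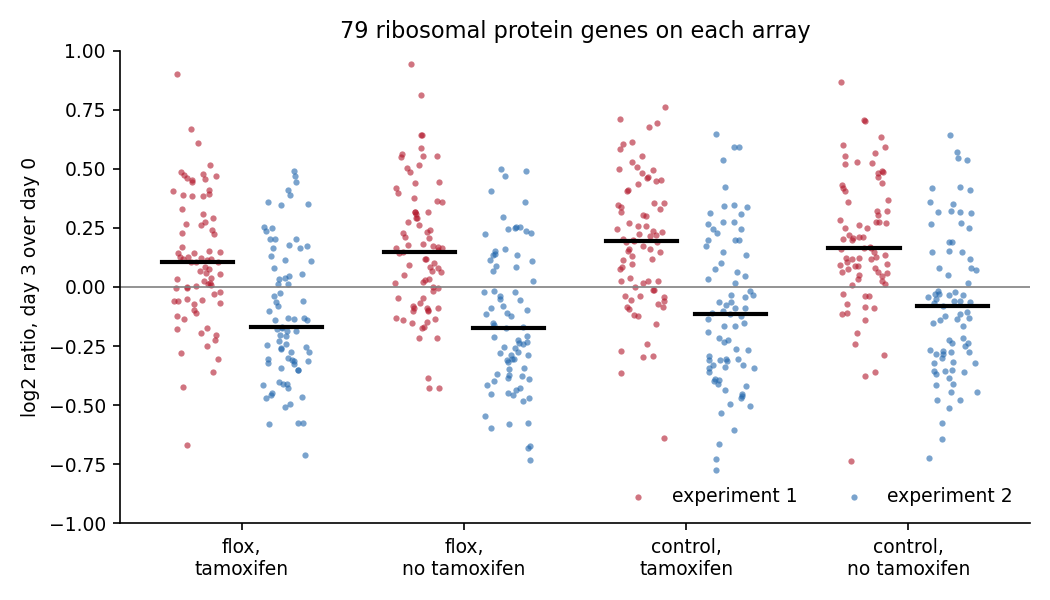
Log2 ratio of day 3 over day 0 for each of 79 ribosomal protein genes (points) on each of 8 arrays, by group and experiment, with the median as a bar. Medians lie between 0.10 and 0.19 in experiment 1 and between -0.17 and -0.08 in experiment 2, in every group.

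The ratios carried a split between experiments that the calls average over. The member median was 0.10, 0.15, 0.19 and 0.16 in experiment 1 for flox cells with tamoxifen, flox cells without, control cells with tamoxifen and control cells without, and -0.17, -0.17, -0.12 and -0.08 in experiment 2. Of the 79 genes, 70 had a higher mean ratio in experiment 1. The correlation of the 2 arrays of a group across the 79 genes was 0.56, 0.59, 0.61 and 0.61 in the same order, against 0.92, 0.93, 0.88 and 0.78 across all genes (genes are not independent, and no p is given). On all 8 arrays, 19 of 79 genes were above 0 (24.1%, against 21.5% of all genes with 8 values) and 6 were below 0 (7.59%, against 29.9%).

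Among members higher at day 3, Rps7 of the small subunit had 0.67 and 0.49 in flox cells with tamoxifen, 0.64 and 0.47 in flox cells without, 0.76 and 0.54 in control cells with tamoxifen and 0.64 and 0.54 in control cells without. The fitted rise was 0.58, 0.56, 0.65 and 0.59 in these groups (± 0.07 each), with the largest limma adjusted p at 0.000763. Rps7 is above 0 on every array, and the groups overlap. Rps18, also of the small subunit, rose by 0.45, 0.52, 0.60 and 0.59 (± 0.07 each), and its 8 arrays lay between 0.45 and 0.60. Rpl28 of the large subunit rose by 0.38, 0.46, 0.60 and 0.56 (± 0.07 each). Rpl19 rose by 0.54, 0.53, 0.55 and 0.54 (± 0.09 each). Rps15 rose by 0.42 ± 0.07 in flox cells with tamoxifen (adjusted p = 0.00204) and Rps27 by 0.51 ± 0.11 in control cells without (adjusted p = 0.00805). Rps19, known for Diamond-Blackfan anaemia when mutated in people, was above 0 on all 8 arrays, with ratios between 0.24 and 0.48.

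Among members lower at day 3, Rpsa of the small subunit, also known as the laminin receptor, had -0.42 and -0.58 in flox cells with tamoxifen, -0.43 and -0.67 in flox cells without, -0.27 and -0.66 in control cells with tamoxifen and -0.38 and -0.58 in control cells without. It fell by 0.50, 0.55, 0.47 and 0.48 (± 0.07 each), with the largest limma adjusted p at 0.00223, and was below 0 on all 8 arrays. Rpl8 fell by 0.47 ± 0.08 in flox cells with tamoxifen (adjusted p = 0.00314) and Rpl38 by 0.43 ± 0.10 in flox cells without (adjusted p = 0.00863). With median centring in place of loess, Rpsa passed in no group, with -0.32 in treated and -0.26 in untreated flox cells, and -0.01 in treated and -0.08 in untreated control cells.

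**Figure D4:**
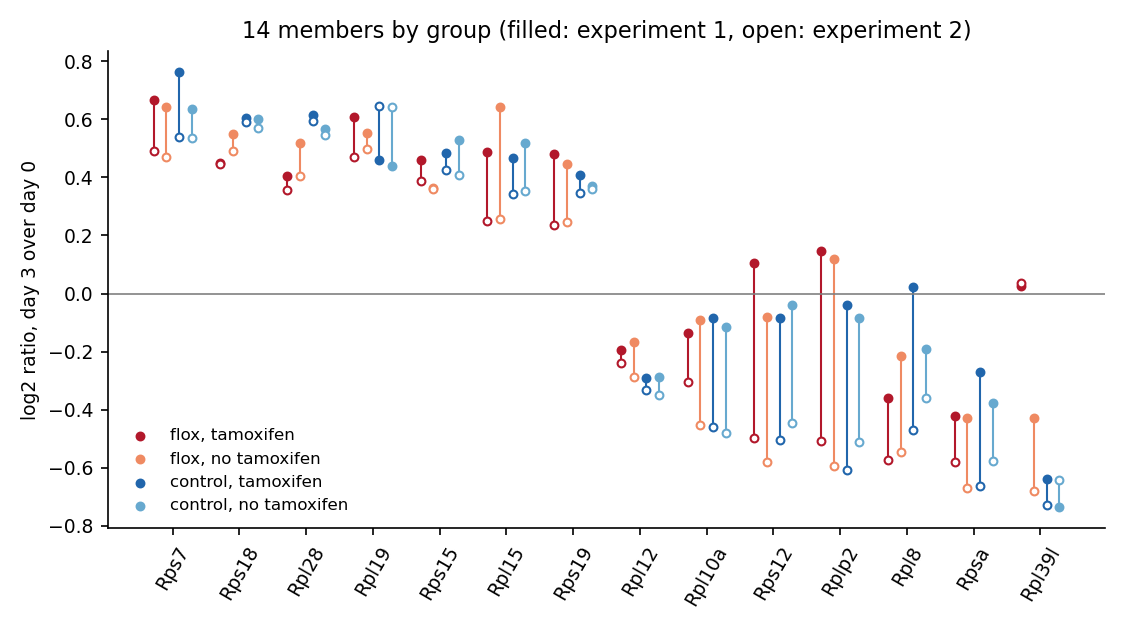
Log2 ratio of day 3 over day 0 for 14 members on each array, by group (colour), with experiment 1 filled and experiment 2 open. Rps7 to Rps19 are above 0 on all 8 arrays, and Rpl12, Rpl10a and Rpsa are below 0 on all 8. Rplp2 and Rps12, among others, are lower in experiment 2 than in experiment 1 in every group.

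The stalk genes did not share 1 direction. Rplp0, which anchors the stalk, had 0.52 and 0.06 in flox cells with tamoxifen, 0.59 and -0.04 in flox cells without, 0.36 and -0.03 in control cells with tamoxifen and 0.05 and -0.02 in control cells without, and passed in no group (smallest limma adjusted p = 0.0521). Rplp1 had -0.20 and 0.08, -0.22 and -0.09, -0.12 and -0.07, and -0.11 and -0.07 in the same order, and passed in none (smallest adjusted p = 0.125). Rplp2, its partner in the stalk, had 0.15 and -0.51, 0.12 and -0.60, -0.04 and -0.61, and -0.09 and -0.51. Rplp2 was called lower in flox cells without tamoxifen by 0.24 ± 0.08 (adjusted p = 0.0367) and in both control groups by 0.32 and 0.30 (± 0.08 each), and not in flox cells with tamoxifen at -0.18 ± 0.08 (adjusted p = 0.0859). Its large negative values came from experiment 2, while those of experiment 1 lay between -0.09 and 0.15. With median centring the sign of Rplp2 turned in the 3 groups in which it was called (0.23 in control cells with tamoxifen). The tamoxifen effect in flox cells was 0.01, 0.09 and 0.06 for Rplp0, Rplp1 and Rplp2, none of which passed.

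The ubiquitin fusion gene and the paralog Rps27l gave small changes in most groups, while the paralog Rpl3l was called lower in each group. Rps27a, made as a fusion with ubiquitin, had 0.23 and -0.04 in flox cells with tamoxifen, 0.09 and 0.03 in flox cells without, -0.06 and 0.04 in control cells with tamoxifen and 0.06 and -0.02 in control cells without, and passed in no comparison. Rps27l, a paralog that p53 induces in human cells, had -0.28 and -0.10, -0.13 and -0.02, -0.16 and 0.03, and -0.14 and -0.03, and was called lower in flox cells with tamoxifen (-0.19 ± 0.07, limma adjusted p = 0.0469). Its partner Rps27 had 0.39 and 0.17, 0.23 and 0.07, 0.59 and 0.07, and 0.87 and 0.15, and was called higher in both control groups. Rpl3l had -0.67 and -0.47, -0.17 and -0.45, -0.37 and -0.19, and -0.36 and -0.30 and was below 0 on all 8 arrays. In control cells without tamoxifen its fitted change was -0.33 ± 0.10 (limma adjusted p = 0.0284). With median centring in place of loess, Rpl3l kept its sign in each group but its call only in flox cells with tamoxifen. Its day 3 signal was well above background on neither array of flox cells with tamoxifen, on neither of flox cells without, on 1 of 2 in control cells with tamoxifen and on both in control cells without, against all 8 day 0 channels. For flox cells the mean day 3 signal was 1.48-fold below that of day 0 after tamoxifen (limma adjusted p = 0.00302). Without tamoxifen it was 1.24-fold below (limma adjusted p = 0.0345). These are estimates from signals close to background, and not bounds. Over the other settings of the analysis, the log2 change in flox cells with tamoxifen ran from -1.98 to -0.46. On each flox array the probe's own day 3 signal was above the lowest signal among probes well above background. Rpl3, its usual partner, had -0.00 and 0.41, -0.07 and 0.24, -0.01 and 0.20, and -0.04 and 0.08 and passed in no group.

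Whether the family as a whole rose at day 3 depended on the normalization. With loess the members' median stood above that of all genes by 0.02 in flox cells with tamoxifen, 0.04 in flox cells without, 0.09 in control cells with tamoxifen and 0.10 in control cells without. With median centring, which leaves the dye curve in place, it stood above by 0.25, 0.37, 0.54 and 0.58, as the mean of 0.90 and -0.41, 0.91 and -0.18, 1.17 and -0.09, and 1.16 and -0.01 in experiments 1 and 2. With Agilent's processed ratios, also corrected for the dye curve, the difference was between -0.00 and 0.02. A loess fitted without the member probes gave 0.02 to 0.11. Most member probes were at the bright end of the array, with a median log2 signal of 17.42, against 10.82 over all genes tested, and brightness belongs to probe and transcript together. The probes of Rpl39l (9.86), Rpl21 (9.72) and Rpl3l (7.23) lay below 10.82. With median centring, 16 members were called higher and 1 lower in flox cells with tamoxifen, 26 and 1 in flox cells without, 53 and 1 in control cells with tamoxifen and 50 and 1 in control cells without. Over all genes, 18.3% were then called higher and 29.1% lower, 15.8% and 29.7%, 20.8% and 26.2%, and 16.3% and 30.3% in the same order. In either direction 47.5%, 45.5%, 46.9% and 46.6% of all genes were called, so that under median centring the called members were a smaller share than the called genes in both flox groups and a larger one in both control groups. Of the members called lower under loess, 0 of 13, 9 of 16, 9 of 13 and 6 of 9 in these groups had the opposite sign under median centring, while each of the 12, 14, 21 and 22 called higher kept its sign.

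**Figure D5:**
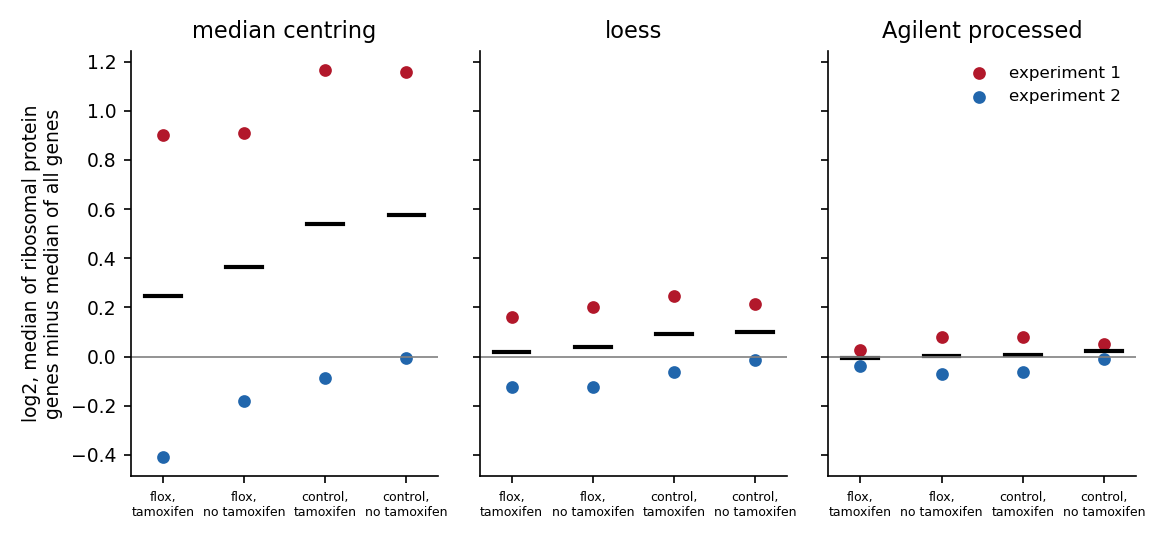
Median log2 ratio of the 79 ribosomal protein genes minus the median of all genes tested on each array, under median centring, loess and Agilent's processed ratios, by group and experiment, with the mean of both as a bar. Group means lie between 0.25 and 0.58 under median centring, between 0.02 and 0.10 under loess and between -0.00 and 0.02 under Agilent's.

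Probes of 1 gene could disagree. There were 86 further probes for 51 genes, and the median absolute difference from the probe used was 0.15 in the day 3 ratio of flox cells with tamoxifen, against 0.04 in the tamoxifen effect in flox cells. Of the called genes with a further probe, one of its further probes had the opposite sign for 6 of 18 in flox cells with tamoxifen, 7 of 21 in flox cells without, 7 of 22 in control cells with tamoxifen and 4 of 19 in control cells without. For Rpsa the further probes gave -0.35, 0.44 and -0.31 in flox cells with tamoxifen, against -0.50 with the probe used. For Rps18 and Rps15 the further probe gave -0.07 and -0.07, against 0.45 and 0.42. These genes have many processed pseudogenes of near-identical sequence in the mouse, which a 60-base probe may not tell apart. The deposited position of the probe used lay on the gene's RefSeq chromosome for 74 of 79 genes, on another for 4 (Rpl31, Rps27, Rps29 and Rps4x) and was unmapped for 1 (Rps3). The values of these 5 genes are uncertain. Where RefSeq gives a strand and the chromosome is the same, the probe lay on the gene's strand in 55 of 55.

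At day 0 most members differed little between the genotypes. Flox minus control had a median of 0.03 in experiment 1 and -0.00 in experiment 2, with quartiles at -0.05 and 0.13 in experiment 1 and at -0.05 and 0.04 in experiment 2. Apart from Rpl39l, the members beyond 0.4 in either experiment were Rpl17 (0.44, then -0.02) and Rpl3l (-0.22, then -0.65).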

How the data were processed

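Cytoplasmic RNA was measured on 8 dual-colour arrays. The authors scanned them with Agilent Feature Extraction 10.7.3.1, per the submitters' processing notes. The deposited files hold the intensity of each spot and its local background, and the authors' processed log10 ratio of red over green; a deposited table gives the same log10 ratio with day 3 on top. The deposited flags (score of 0 or 1) mark spots above background and outliers.

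Mean intensities were background-corrected with normexp (offset 50), normalized by loess within each array in limma 3.58.1 (R 4.3.3), and turned to log2 day 3 over day 0; outlier spots were left out. Probes well above background on both arrays of 1 group in either channel were kept, and the brightest probe stood for a gene. The limma model held 4 group means and the experiment (3 residual degrees of freedom). Symbols are as deposited, and positions are mm9 where credited to the array. Deviations of the 2 arrays of a group from their mean correlated between groups at 0.31 to 0.73 over all genes. By the study's design text, all arrays of the same replicate number came from 1 experiment. Calls need a p adjusted over all genes of a comparison under 0.05; there were 9 comparisons, all two-sided. Alternatives changed the background correction, normalization, filter, probe choice, experiment term, random block (statmod 1.5.0), arrays in the fit and single channels, and left out each array in turn. The code was tested on simulated data. Members, lists and the rule for named genes (all members by role, with full values for the stalk, Rpsa, Rps27a, paralogs and the largest changes) were chosen with earlier results of these data known. The values of 1 member are not reported here; it stays in the counts over the family. Precision is limited by the number of arrays.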

Additional observations from a re-analysis of the deposited data

Results flagged for a closer look

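Rpl39l was the only ribosomal protein gene for which a difference between genotypes passed its test: with tamoxifen, flox cells stood 0.72 ± 0.12 above control cells in the day 3 over day 0 log2 ratio (limma adjusted p = 0.0177), with 0.67 in experiment 1 and 0.77 in experiment 2. At day 0 its log2 signal in flox minus control cells was -1.23 in experiment 1 and 1.59 in experiment 2, and the origin of these samples was not checked here. The groups of 2 arrays are too small for a test of single arrays that stand apart.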

How the results depend on the processing

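Counts of called members were recomputed under 21 or fewer other settings for each comparison, chosen with the design. With no replicate block (no term for the experiment) 13, 13, 14 and 17 members were called at day 3 in flox cells with tamoxifen, flox cells without, control cells with tamoxifen and control cells without, and 0 for the tamoxifen effect in flox cells. Median centring gave 54 and 51 in control cells with and without tamoxifen at day 3, and 0 for both comparisons in which Rpl39l was called; it also reversed Rplp2 in control cells with tamoxifen (0.23), and turned its sign in the other 2 groups in which it was called. The tamoxifen effect in flox cells gave 2 calls with a random block for the day 0 RNA that arrays share and with only the arrays compared, the second being Rpl21. Flox against control with tamoxifen gave 2 with the mean of all probes (Rpl13a added at -0.43) and 0 with the day 3 channel alone. With each array left out, the day 3 counts ranged from 6 to 29, 8 to 34, 8 to 33 and 17 to 26 in the 4 groups as ordered above, lowest without an array of the group itself (6 and 13, 8 and 10, 9 and 8, and 17 and 17 without that of experiment 1 and of experiment 2), and both counts for Rpl39l from 0 to 1; the other 3 comparisons stayed at 0. The 30 called changes followed across settings (the largest of each comparison) kept sign and call in 528 of 571 recomputed values, lost the call in 42 and turned in that 1. The 18 named changes that had not passed turned sign in 4 of 360 and passed in 0 (Rpl5 for flox against control without tamoxifen with the day 3 channel alone, and Rps2, Rplp0 and Rps27 for tamoxifen in control cells without the untreated control array of experiment 1). The cause was not tested. Signal over background limits only Rpl3l and Rpl10l.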
